A study of Mus musculus with 39 samples.

Results

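Flow-responsive and vasoactive genes are described here in endothelial cells of the mouse brain that had lost Smad4, Alk1 or Eng. The 9 members were chosen by gene symbol, not by their measured values, and are 9 of the 24946 genes present in all tables. They are Klf2, Klf4, Nos3, Edn1, Ece1, Ednrb, Piezo1, Ace and Heg1. All 9 passed the filter on low values in every comparison.

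Messenger RNA was sequenced from endothelial cells that beads with a PECAM antibody had captured from digested whole brains of C57BL/6 pups. Alk1 (gene symbol Acvrl1) is an endothelial receptor for BMP9 and BMP10, Eng assists it at the membrane, Smad4 carries its signal to the nucleus, and their loss is used as a model of hereditary haemorrhagic telangiectasia, a disease of malformed vessels. The 39 libraries fall into 9 groups. Mutants were Smad4f/f; Cdh5-CreERT2, Alk1f/f; Cdh5-CreERT2 or Engf/f; Cdh5-CreERT2, with 5 libraries each, and their wild types were Smad4f/f, Alk1f/f or Engf/f without Cre, also 5 each. Cdh5-CreERT2 is a tamoxifen-inducible Cre driven from the gene of the endothelial junction protein VE-cadherin. Both genotypes of a cohort thus carried the floxed allele, and Cre was present in mutants alone, so effects of Cre and of the deletion cannot be told apart. Smad4 and Eng pups received 300 µg tamoxifen on postnatal days 1 to 3 and were taken on day 7, while Alk1 pups received 100 µg on day 4 and were taken on day 6. A separate set of Smad4 pups, on the same tamoxifen schedule and taken on day 7, received 30 µg of an antibody on days 2 and 4. It gave 3 libraries of Smad4f/f and 3 of Smad4f/f; Cdh5-CreERT2 pups given control IgG and 3 of Smad4f/f; Cdh5-CreERT2 pups given LC10, an inhibitor of angiopoietin-2.

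Blood flow drags on the endothelial surface, and this shear stress is sensed by channels such as PIEZO1 and by junctional receptors. Through the kinases MEKK3 and ERK5 it induces the transcription factors KLF2 and KLF4, which drive Nos3 and restrain the inflammatory state of the vessel wall. HEG1 anchors the cerebral cavernous malformation (CCM) complex, a brake on this kinase pathway, at cell junctions. The vessel's tone is set by agents that the endothelium itself releases or converts. Nitric oxide made by NOS3 relaxes smooth muscle. Endothelin-1, cut from its precursor by ECE1, contracts it, and the receptor EDNRB on endothelium clears endothelin and releases nitric oxide. ACE forms angiotensin II and breaks down bradykinin.

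Values are normalized expression values per gene and library as deposited, and log2 fold changes compare mutants with wild types of the same table as log2(value + 2), given ± SE. A gene was called at a limma adjusted p under 0.05 over all genes tested. Library sums of these values, in units of 1e6, ran from 25.4 to 42.7 and 16105 to 17683 genes lay above 0. The values are not counts, so these sums do not give the sequencing depth. As a check on the labels, Smad4 lay at 1676 to 1916 in Smad4 mutants against 5258 to 5903 in wild types, and at 1817 to 3030 against 5625 to 5975 under IgG. Eng lay at 8613 to 11508 in Eng mutants against 60151 to 70402. Acvrl1 stood at -0.12 as log2 fold change (adjusted p = 0.279) in the Alk1 cohort, where the deleted part is not given in the sources used here, so its value does not check the genotype. Endothelial markers were high in all groups, with a summed level over 10 genes of 414552 to 546893 in the Smad4 cohort. Markers of other brain cells were present in every group as well, and in bulk RNA fewer cells of a type and less RNA per cell cannot be told apart.

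In the mm10 build, Klf2 is at chr8:72319033-72321656, Klf4 at chr4:55527143-55532466, Nos3 at chr5:24364810-24384474 and Edn1 at chr13:42301476-42307990. Ece1 is at chr4:137862237-137965229, Ednrb at chr14:103814625-103844402 and Piezo1 at chr8:122481698-122551329. Ace is at chr11:105967945-105989964 and Heg1 at chr16:33684370-33771576. Klf4, Ednrb and Piezo1 lie on the minus strand and the other members on the plus strand. Of the exon bases of Nos3, 32.3% overlap Atg9b or Gm15587 on the opposite strand, and of those of Piezo1 24.6% overlap Ctu2. The library kit does not mark strand, so reads of these pairs cannot be told apart in the overlap.

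Promoter windows from 250 bases before to 50 after a start site were taken from RefSeq (GRCm38.p6), which gave 12 windows for 8 of the 9 members. Nos3 had no window and could not be searched. Between libraries the factors Klf2 and Klf4 varied together, and so did the peptide Edn1 and its converting enzyme Ece1, as other pairs of members did. Heg1 holds the most boxes of the kind that KLF factors bind. The windows of these genes are shown. They span chr8:72318812-72319111 on the plus strand for Klf2, chr4:55532426-55532725 on the minus strand for Klf4, chr13:42301226-42301525 on the plus strand for Edn1, chr4:137861987-137862286 on the plus strand for the first window of Ece1, and chr16:33684216-33684515 on the plus strand for Heg1. Each is written 5′ to 3′. Capitals mark matches, on either strand, to the KLF box CACCC, a longer MEF2 pattern (CTA and TAG with any 4 bases between), the hypoxia element ACGTG, the GC-rich BMP-SMAD element GGCGCC and the shear stress element GAGACC.
Klf2: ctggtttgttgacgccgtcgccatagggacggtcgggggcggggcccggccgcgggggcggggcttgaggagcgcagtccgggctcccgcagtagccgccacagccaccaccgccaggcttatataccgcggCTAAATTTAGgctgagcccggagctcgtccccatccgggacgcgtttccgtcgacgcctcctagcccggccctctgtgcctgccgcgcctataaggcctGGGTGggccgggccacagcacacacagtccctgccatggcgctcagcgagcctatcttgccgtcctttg
Klf4: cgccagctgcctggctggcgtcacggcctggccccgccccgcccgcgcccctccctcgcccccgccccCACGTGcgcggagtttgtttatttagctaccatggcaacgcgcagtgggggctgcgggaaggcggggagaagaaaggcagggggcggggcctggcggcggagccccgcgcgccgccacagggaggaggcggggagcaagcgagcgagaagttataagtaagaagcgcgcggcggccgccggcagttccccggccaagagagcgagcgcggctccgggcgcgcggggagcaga
Edn1: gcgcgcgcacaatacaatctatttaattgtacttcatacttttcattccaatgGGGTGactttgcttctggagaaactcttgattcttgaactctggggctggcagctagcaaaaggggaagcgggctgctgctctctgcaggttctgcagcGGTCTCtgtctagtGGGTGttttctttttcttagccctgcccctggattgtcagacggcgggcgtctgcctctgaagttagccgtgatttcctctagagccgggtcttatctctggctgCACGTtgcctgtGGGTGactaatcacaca
Ece1: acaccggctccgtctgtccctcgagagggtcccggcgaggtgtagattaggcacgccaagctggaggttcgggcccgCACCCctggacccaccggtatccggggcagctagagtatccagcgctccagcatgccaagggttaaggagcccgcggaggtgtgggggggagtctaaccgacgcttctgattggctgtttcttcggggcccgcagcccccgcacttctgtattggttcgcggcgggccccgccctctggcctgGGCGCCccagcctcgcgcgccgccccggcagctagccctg
Heg1: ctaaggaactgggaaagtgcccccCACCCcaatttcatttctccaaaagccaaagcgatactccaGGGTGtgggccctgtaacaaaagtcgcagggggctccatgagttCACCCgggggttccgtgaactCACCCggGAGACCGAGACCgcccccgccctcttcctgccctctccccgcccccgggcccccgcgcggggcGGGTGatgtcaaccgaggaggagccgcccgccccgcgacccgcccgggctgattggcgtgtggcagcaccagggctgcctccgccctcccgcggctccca

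The KLF box lay in at least 1 window of Klf2, Edn1, Ece1, Ednrb, Piezo1, Ace and Heg1 but not in that of Klf4, and 57.5% of all 32841 windows hold it. Heg1 had 5, first at -226 from its start site, and Edn1 and Ednrb had 3 each. The longer MEF2 pattern, searched after the shorter core TATTTAT had been seen to match in no member's window, began at -118 in Klf2, and 3.69% of all windows hold it. TATTTAT is in 5.59% of all windows, and TGANTCA, the AP-1 element, is in 7.81% and likewise in no member's. Windows of Edn1, Piezo1 and Heg1 held GAGACC (16.4% of all windows), those of Klf4, Edn1 and Ece1 ACGTG (19.6%), and those of Ece1 GGCGCC (11.9%). In Klf4 the match to ACGTG is palindromic, CACGTG, and was found on both strands. These matches describe letters and were not tested against the expression values.

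In wild types, levels per kilobase of annotated exon ranked the members from Nos3 to Ednrb. In the Smad4 wild types Nos3 stood at 5283 ± 187 per kilobase (SD, n = 5), Klf2 at 4650 ± 315 and Ece1 at 4503 ± 313. Klf4 followed at 2592 ± 124 per kilobase, Piezo1 at 1772 ± 121 and Edn1 at 1474 ± 320. Heg1 stood at 1415 ± 166, Ace at 1317 ± 59.2 and Ednrb at 539 ± 180 per kilobase. Klf2 and Ece1, Piezo1 and Edn1, Edn1 and Heg1, and Heg1 and Ace, neighbours in this order, differed by less than the larger of their SDs. Nos3, Klf2 and Ece1 were also the highest of the 9 per kilobase in the Alk1 and Eng wild types, with Ednrb lowest at 266 ± 68.1 and 524 ± 108. Between tables a level has no common scale, because each table was normalized on its own.

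**Figure D1:**
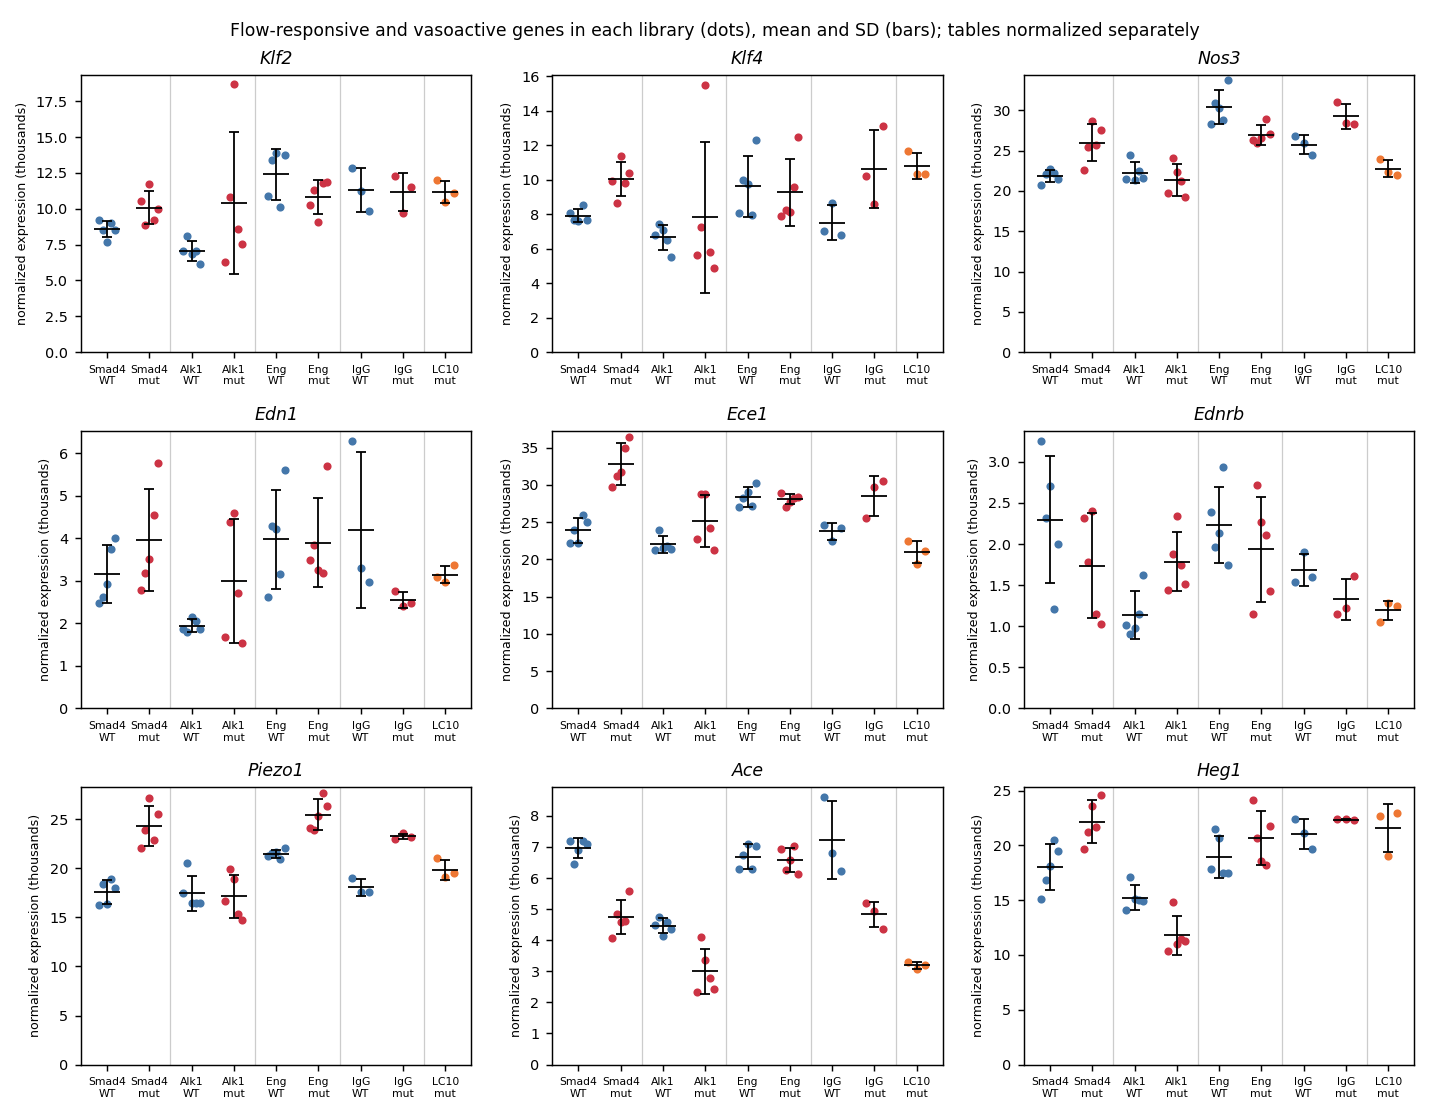
Normalized expression (linear axes from 0, scale as labelled) of the 9 genes in each of the 39 libraries. Dots are libraries, bars the mean and SD of a group, blue wild types, red mutants and orange mutants given LC10. Ece1, Piezo1 and Ace separate Smad4 mutants from wild types without overlap, Ace does so for Alk1, Piezo1 for Eng, and Alk1 mutants spread widely in Klf2, Klf4 and Edn1.

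Loss of Smad4 moved most of these genes. Of the 9 members 7 were called, 6 higher (Klf2, Klf4, Nos3, Ece1, Piezo1 and Heg1) and 1 lower (Ace). Of all 14012 genes tested 33% were called, 17.2% higher and 15.8% lower. That balance depends on the scale: 2409 genes were higher and 2211 lower as deposited, and 1691 and 2854 with library totals as the scale, under which 3 members (Klf4, Ece1 and Piezo1) were called higher and 1 (Ace) lower. The median log2 fold change of the 9 was 0.30, against -0.01 over all genes. Mutants and wild types did not overlap for Klf4, Ece1, Piezo1 and Ace, and 22.8% of all genes did not overlap.

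Piezo1, the stretch-activated cation channel, was at 16288, 18404, 16388, 18907 and 18053 in Smad4 wild types and at 22108, 23966, 27142, 22906 and 25547 in mutants. All 5 mutants lay above all 5 wild types, and the log2 fold change was 0.47 ± 0.07 (adjusted p = 0.000626). Ctu2, which shares exon bases with Piezo1, was also higher, by 0.33 (adjusted p = 0.0446), from a mean of 1570 to 1966. Ece1, the endothelin-converting enzyme, was at 22215, 23912, 22248, 25964 and 25001 in wild types and at 29649, 31245, 31713, 34888 and 36407 in mutants. Every mutant was above every wild type, with a log2 fold change of 0.46 ± 0.07 (adjusted p = 0.000861).

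Klf4 was at 8042, 7662, 7626, 8505 and 7674 in Smad4 wild types and at 9909, 8636, 11388, 9796 and 10381 in mutants, without overlap. It rose by 0.34 ± 0.07 on the log2 scale (adjusted p = 0.00417). Klf2 was at 9197, 8507, 7691, 8996 and 8550 in wild types and at 10576, 8894, 11746, 9245 and 9962 in mutants. Here mutant 2 lay within the wild types, and the log2 fold change was 0.23 ± 0.08 (adjusted p = 0.0460). The Klf2 call was lost when any 1 of 8 libraries was left out (adjusted p up to 0.104), and after scaling to library totals (adjusted p = 0.239). Of 17 immediate early and dissociation genes, which cell preparation can induce, 5 were called lower in this cohort, where 15.8% of all genes were, and 0 higher. They had a summed level of 109261 to 165752 in wild types and 57025 to 116623 in mutants. With their level as a term in the fit, Klf2 stood at 0.36 (adjusted p = 0.0201) and Klf4 at 0.47 (adjusted p = 0.00132). The part of cell preparation in either gene was not tested beyond this term.

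Nos3, the endothelial nitric oxide synthase, was at 20703, 22048, 22703, 22234 and 21458 in Smad4 wild types and at 22636, 25493, 28633, 25705 and 27552 in mutants. Mutant 1 lay just within the wild types and the other 4 above them (log2 fold change 0.25 ± 0.07, adjusted p = 0.0155). Atg9b, which overlaps it, was also called higher, from a mean of 96.9 to 169 (0.74, adjusted p = 0.0398). Heg1, the junctional anchor of the CCM complex, was at 15149, 16861, 18089, 20515 and 19451 in wild types and at 19700, 21245, 23576, 21657 and 24605 in mutants (0.30 ± 0.09, adjusted p = 0.0249), and 4 of 5 mutants lay above all wild types. The calls of Nos3 and Heg1 were both lost with the summed values as scale (adjusted p = 0.0599 and 0.0520) and with the level of glial and neuronal markers as a term (0.20, adjusted p = 0.138, and 0.18, adjusted p = 0.292). Heg1 also lost its call without wild type 1, wild type 2 or mutant 5 (adjusted p up to 0.0596), among the L146 libraries alone (0.21, adjusted p = 0.0659) and with the choroid plexus level as a term (0.08, adjusted p = 0.627).

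Ace, the angiotensin-converting enzyme, was the 1 member that fell. Its values were 7197, 6442, 6908, 7184 and 7081 in Smad4 wild types and 4066, 4833, 4580, 4631 and 5576 in mutants. All mutants lay below all wild types, and Ace fell by 0.56 on the log2 scale (SE 0.07, adjusted p = 0.000278). Choroid plexus epithelium, which is known to express Ace, gave less RNA in the mutants, with 5 of 6 of its markers lower and a summed level of 8185 to 32367 against 41363 to 170218. With that marker level as a term the log2 fold change of Ace was -0.70 (adjusted p = 0.000753), and between libraries of a group the relation of Ace to it was not called (Pearson r = -0.36, Spearman rho -0.35, adjusted permutation p = 0.152 for r, r = -0.50 without the 2 libraries farthest from the median, n = 30). The part of choroid plexus RNA in the fall of Ace was not tested beyond these values, and under IgG the same term ended the call of Ace (-0.30, adjusted p = 0.0846).

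Edn1 and its receptor Ednrb were not called after loss of Smad4. Edn1 was at 2477, 2627, 2913, 3741 and 4011 in wild types and at 2776, 3175, 3521, 4555 and 5761 in mutants (0.30 ± 0.20, adjusted p = 0.260), and with the glial and neuronal level as a term it stood at -0.13 (adjusted p = 0.698). Within each genotype the libraries 4 and 5, which carry the code L146 in their names, were the highest, and with that code as a term Edn1 was called at the same 0.30 (adjusted p = 0.0137). Ednrb was at 3259, 2320, 2706, 1209 and 2000 in wild types and at 2323, 1782, 2408, 1148 and 1028 in mutants (-0.41 ± 0.30, adjusted p = 0.302), with the L146 libraries the lowest of their genotype. With the code as a term it was called at -0.41 (adjusted p = 0.0356), while the glial and neuronal level as a term gave 0.39 (adjusted p = 0.226). Astrocytes are known to express Ednrb, and the summed level of 10 astrocyte markers was 13593 to 33504 in wild types and 8443 to 21491 in mutants. The part of these cells in the Ednrb values was not tested apart from that term.

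**Figure D2:**
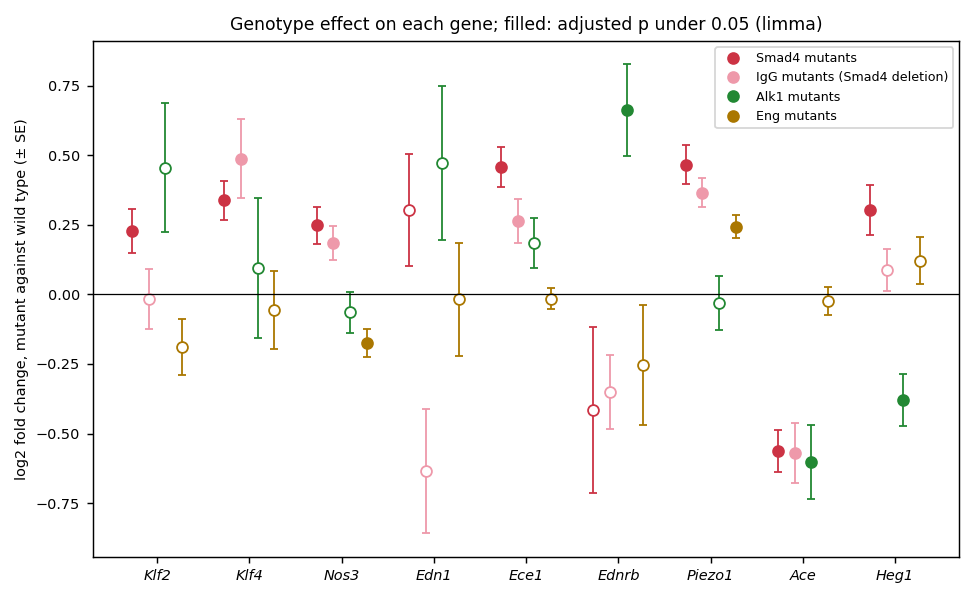
Log2 fold change of mutants against wild types of the same table for each gene, with the SE as bars. Filled points were called by limma (adjusted p under 0.05) and open points were not. Ace lies near -0.6 for Smad4, IgG and Alk1 and near 0 for Eng, and Piezo1 is filled and above 0 for Smad4, IgG and Eng.

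Loss of Alk1 moved 3 of the 9 members, Ednrb higher and Ace and Heg1 lower. Of all 13635 genes 33.2% were called in that cohort, 17.5% higher and 15.7% lower, or 2386 and 2144 genes, against 1867 and 2678 with library totals as the scale. The share of members called was thus near that of all genes. The median log2 fold change of the members was 0.10, against -0.01 over all genes. Ace alone of the 9 had no overlap between mutants and wild types, as had 24.5% of all genes.

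Ace was at 4501, 4753, 4125, 4582 and 4358 in Alk1 wild types and at 2336, 4096, 3355, 2791 and 2444 in mutants. The highest mutant lay just under the lowest wild type (-0.60 ± 0.13, adjusted p = 0.00454). Heg1 was at 14077, 17078, 15117, 15044 and 14885 in wild types and at 10387, 14821, 10983, 11417 and 11287 in mutants. Mutant 2 alone reached the wild-type range (-0.38 ± 0.09, adjusted p = 0.00803). With only the 6 uncoded libraries neither was called (-0.49, adjusted p = 0.114, and -0.37, adjusted p = 0.129), although sizes were close to those of the whole cohort. With the choroid plexus level as a term Ace stood at -0.68 (adjusted p = 0.00494).

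Ednrb rose in the Alk1 mutants. It was at 1012, 907, 975, 1155 and 1629 in wild types and at 1439, 1881, 2339, 1748 and 1513 in mutants, and 3 of 5 mutants lay above all wild types (0.66 ± 0.17, adjusted p = 0.00898). Astrocyte markers summed to 8790 to 17837 in wild types and 8156 to 14939 in mutants, and with the glial and neuronal level as a term Ednrb stood at 0.75 (adjusted p = 0.00340). The call was lost with the dissociation gene level as a term (0.48, adjusted p = 0.0837) and among the 4 libraries with the code L219 (0.25, adjusted p = 0.276).

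The flow-induced factors spread widely among Alk1 mutants. Klf2 was at 7039, 8108, 6860, 7059 and 6122 in wild types and at 6269, 10844, 18701, 8583 and 7519 in mutants (0.46 ± 0.23, adjusted p = 0.152). Klf4 was at 6782, 7402, 7090, 6512 and 5535 in wild types and at 5634, 7266, 15491, 5798 and 4856 in mutants (0.10 ± 0.25, adjusted p = 0.800). Edn1 was at 1864, 1800, 2152, 2059 and 1854 in wild types and at 1681, 4392, 4605, 2715 and 1540 in mutants (0.47 ± 0.28, adjusted p = 0.212). Mutant 3 was the highest library in all 3 genes, and mutant 1 or 5 the lowest mutant. Its summed level of dissociation and immediate early genes was 209769, against 61576 to 99393 in the other mutants and 49938 to 70110 in wild types, and 4 of those 17 genes were called higher. With that level as a term Klf2 stood at -0.07 (adjusted p = 0.622) and Klf4 was called lower at -0.49 (adjusted p = 0.00115). Without mutant 3 Klf4 stood at -0.19, and without mutant 1 Klf2 was called higher at 0.61 (adjusted p = 0.0450).

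Nos3, Piezo1 and Ece1 were not called in the Alk1 cohort. Nos3 was at 21464, 24412, 21313, 22462 and 21595 in wild types and at 19709, 24097, 22340, 21255 and 19243 in mutants (-0.06 ± 0.07, adjusted p = 0.545). Piezo1 lay at 16429 to 20562 in wild types and 14782 to 19912 in mutants, medians 16454 and 16686 (-0.03 ± 0.10, adjusted p = 0.830). Ece1 was at 21266 to 23895 in wild types and 21305 to 28786 in mutants (0.18 ± 0.09, adjusted p = 0.139). The 3 highest mutants in Ece1 lay above all wild types.

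Loss of Eng moved 2 of the 9 members, Piezo1 higher and Nos3 lower. The share of all 14350 genes called was 21.5%, near that of the members, with 12.4% higher and 9.08% lower. Piezo1 was at 21297, 21540, 21627, 20944 and 22079 in Eng wild types and at 24144, 23925, 25363, 27666 and 26364 in mutants. No mutant overlapped a wild type, as for 16.5% of all genes, and the log2 fold change was 0.24 ± 0.04 (adjusted p = 0.00168). Ctu2 was again higher with it, by 0.17 (adjusted p = 0.00449).

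Nos3 was at 28297, 30927, 30325, 28829 and 33714 in Eng wild types and at 26255, 25926, 26561, 28933 and 27040 in mutants (-0.17 ± 0.05, adjusted p = 0.0292). Mutant 4 lay within the wild types and the other 4 below them. The call was lost without any 1 of 5 libraries (wild types 2 and 3, mutants 1 to 3; adjusted p up to 0.0690) and among the L210 libraries alone (-0.14, adjusted p = 0.0628).

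The other 7 members were not called after loss of Eng. Klf2 lay at 10128 to 13878 in wild types, median 13384, and at 9067 to 11849 in mutants, median 11285 (-0.19 ± 0.10, adjusted p = 0.224). Klf4 stood at -0.06 ± 0.14 (adjusted p = 0.822) and Edn1 at -0.02 ± 0.20 (adjusted p = 0.967). In both genes library 5, the 1 library of each genotype with the code L216, was the highest, at 12318 and 12501 for Klf4 and at 5615 and 5704 for Edn1. Ece1 stood at -0.02 ± 0.04 and Ace at -0.02 ± 0.05, with 95% intervals of -0.10 to 0.07 and -0.13 to 0.09. Ednrb (-0.25 ± 0.22) and Heg1 (0.12 ± 0.08) had wider intervals, -0.72 to 0.22 and -0.06 to 0.31.

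The cohorts were then compared by testing the difference of their genotype effects in 1 fit of the 30 untreated libraries. Between loss of Smad4 and loss of Alk1, 4 members differed, where 17.1% of 13500 genes did, 8.44% with the higher and 8.63% with the lower effect in Smad4. Heg1 stood at 0.30 against -0.38, a difference of 0.68 ± 0.13 (adjusted p = 0.000575). Piezo1 differed by 0.50 ± 0.11 (adjusted p = 0.00140), Nos3 by 0.31 ± 0.09 (adjusted p = 0.0150) and Ednrb by -1.08 ± 0.36 (adjusted p = 0.0408). The Ednrb difference lost its call in 13 of the 20 fits that left out 1 library (adjusted p up to 0.0867). Over the uncoded libraries those of Nos3 and Piezo1 were not called (0.25, adjusted p = 0.381, and 0.49, adjusted p = 0.0973). The fall of Ace was of like size in both cohorts, with a difference of 0.04 and an interval of -0.25 to 0.33.

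Between loss of Smad4 and loss of Eng, 3 members differed, where 8.65% of genes did, 4.58% higher and 4.07% lower in Smad4. Nos3 differed by 0.42 ± 0.09 (adjusted p = 0.00258), Ece1 by 0.47 ± 0.10 (adjusted p = 0.00253) and Ace by -0.54 ± 0.14 (adjusted p = 0.0152). Piezo1 rose in both cohorts, and the difference of 0.22 was not called (interval 0.00 to 0.44, adjusted p = 0.202). Between loss of Alk1 and loss of Eng, Ace (-0.58 ± 0.14, adjusted p = 0.00550) and Heg1 (-0.50 ± 0.13, adjusted p = 0.0103) differed, where 15.8% of genes did, 8.55% higher and 7.27% lower in Alk1. No member was called in the same direction in all 3 cohorts, as 7.91% of 13500 genes were. Smad4 and Eng pups shared the tamoxifen schedule and age. Alk1 pups differed from both in dose, day and age, which cannot be told apart from the deleted gene in the differences that involve Alk1. Every cohort also had its own separately normalized table, and Smad4 and Eng libraries shared no library code. Table and deleted gene thus cannot be told apart in any of these differences. With library totals as the scale, the called genes split into 421 higher and 808 lower for Smad4 minus Eng, in place of 618 and 550, and into 908 and 1444 for Alk1 minus Eng, in place of 1154 and 981.

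The Smad4 deletion was measured a second time in pups given IgG, with its own wild types. There 5 of the 9 members were called, 4 higher (Klf4, Nos3, Ece1 and Piezo1) and Ace lower. Of all 14052 genes 24% were called, 13.2% higher and 10.8% lower. These 5 were called in the same direction in the untreated Smad4 cohort, which 16.3% of 13860 genes tested in both were. Of 10 microglia markers 9 were lower and 0 higher in IgG mutants, with a median of -1.05. In the untreated Smad4 cohort 0 were lower and 0 higher, with a median of -0.33. The part of such cells in the members was not tested.

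Piezo1 was at 19053, 17588 and 17548 in IgG wild types and at 23015, 23565 and 23217 in IgG mutants (0.37 ± 0.05, adjusted p = 0.00222). Ace was at 8614, 6814 and 6225 in wild types and at 5184, 4924 and 4373 in mutants (-0.57 ± 0.11, adjusted p = 0.00635). Neither gene overlapped between genotypes, as did not 40.9% of all genes with 3 libraries against 3, and both kept their call without any 1 of the 6 libraries. Ctu2 was higher with Piezo1, by 0.28 (adjusted p = 0.00942). Choroid plexus markers summed to 35617 to 111239 in wild types and 10518 to 38790 in mutants, with 3 of 6 lower, and with their level as a term Ace was not called (-0.30, adjusted p = 0.0846).

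Klf4 was at 7045, 8661 and 6814 in IgG wild types and at 10208, 8592 and 13084 in mutants (0.49 ± 0.14, adjusted p = 0.0330). Nos3 was at 26758, 25961 and 24480 against 31035, 28410 and 28337 (0.19 ± 0.06, adjusted p = 0.0483). Ece1 was at 24555, 22503 and 24170 against 25485, 29664 and 30470 (0.26 ± 0.08, adjusted p = 0.0387). The mutants lay above the wild types in full for Nos3 and Ece1, and mutant 2 lay within them for Klf4. These 3 calls were lost when the IgG table was fitted without the LC10 libraries (adjusted p = 0.0639, 0.0803 and 0.0586), and with the glial and neuronal level as a term they stood at 0.43, 0.09 and 0.18 (adjusted p = 0.187, 0.419 and 0.295). Leaving out single libraries ended the call of Nos3 in 6 of 6 fits, of Ece1 in 5 and of Klf4 in 3.

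Edn1 was at 6290, 3309 and 2975 in IgG wild types and at 2751, 2410 and 2488 in mutants. All mutants lay below all wild types, yet the difference missed the threshold (-0.64 ± 0.22, adjusted p = 0.0630), with wild type 1 far above the other libraries. Without wild type 1 it stood at -0.30 and was called (adjusted p = 0.0331). In the untreated cohort Edn1 had stood at 0.30, and the difference between both estimates was -0.94 ± 0.36, with an unadjusted limma p of 0.0181 and an adjusted p of 0.701. By limma 0 of the 9 members were called in that comparison, Edn1 alone had an unadjusted p under 0.05, and of all genes 0.00725% were called.

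Klf2 was at 12861, 11261 and 9841 in IgG wild types and at 12308, 9710 and 11544 in mutants (-0.02 ± 0.11, adjusted p = 0.931). Ednrb was at 1540, 1900 and 1602 against 1144, 1221 and 1612 (-0.35 ± 0.13, adjusted p = 0.0787), and Heg1 at 22393, 21129 and 19664 against 22417, 22381 and 22272 (0.09 ± 0.08, adjusted p = 0.423). Groups overlapped in all 3 genes.

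The 3 mutants given LC10 were set beside the IgG mutants without a test, because they come from a separately normalized table, so that treatment and table cannot be told apart. After median-of-ratios scaling of the 9 antibody libraries, LC10 and IgG mutants did not overlap for 6 of the 9 members, against 18.4% of all genes. On the log2 scale Edn1 was 0.67 higher in LC10 mutants, Klf4 0.41, Klf2 0.38, Heg1 0.31 and Piezo1 0.14 higher, and Ace differed by -0.22. Division by the library total gave the same 6 genes and directions. In the values as deposited, which carry the lower sums of the LC10 table, the differences were 0.30 for Edn1, 0.04 for Klf4, 0.00 for Klf2, -0.06 for Heg1, -0.23 for Piezo1 and -0.59 for Ace. As deposited, Klf2, Klf4 and Heg1 overlapped between LC10 and IgG mutants. Piezo1, Nos3 and Ece1 were then lower in LC10 mutants without overlap. That scale moved all 9 members alike, by -0.37, and the median of all 14052 genes to -0.38, so the sign of a small difference (Heg1, Piezo1, Nos3 and Ednrb) depends on it, while the order of the members does not.

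Under that scaling, Edn1 was at 3652, 3533 and 3971 in LC10 mutants, at 2517, 2207 and 2273 in IgG mutants and at 5780, 3030 and 2714 in IgG wild types. The LC10 mutants thus lay above the IgG mutants and within the IgG wild types. Ace was at 3891, 3655 and 3779 in LC10 mutants, at 4743, 4507 and 3995 in IgG mutants and at 7916, 6241 and 5680 in IgG wild types. Here the LC10 mutants lay below both groups. Klf4 was at 13846, 12279 and 12196 in LC10 mutants, at 9338, 7865 and 11954 in IgG mutants and at 6474, 7932 and 6217 in IgG wild types, and all LC10 values were above all others. Nos3 (0.01), Ece1 (-0.07) and Ednrb (0.23) overlapped between LC10 and IgG mutants.

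**Figure D3:**
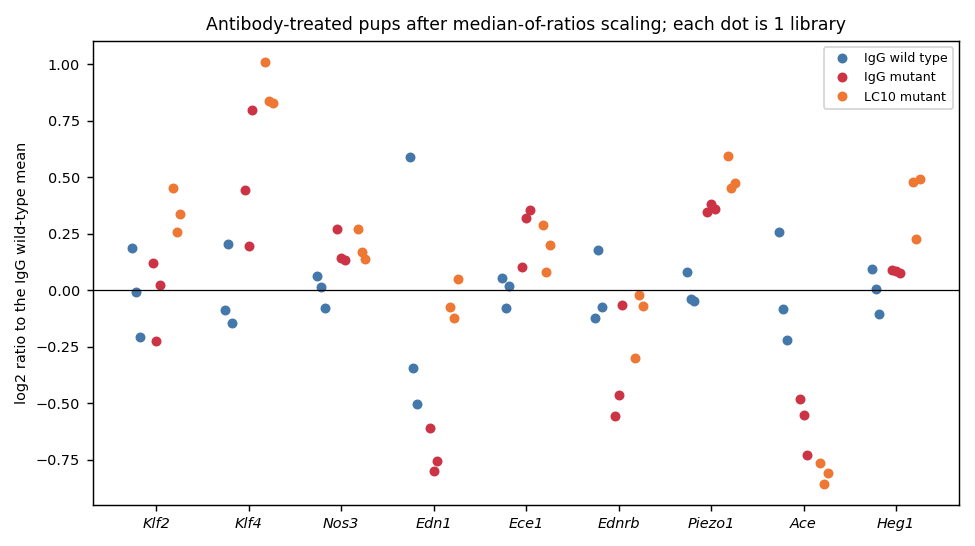
Log2 ratio of each antibody-treated library to the mean of the IgG wild types after median-of-ratios scaling, for the 9 genes. Each dot is 1 library, blue IgG wild type, red IgG mutant and orange LC10 mutant. LC10 mutants lie above IgG mutants in Klf2, Klf4, Edn1, Piezo1 and Heg1 and below them in Ace.

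Apart from genotype, several members varied together between libraries of the same group. Deviations of log2 values from the group mean were compared over the 30 untreated libraries for 72 pairs, with permutations within groups and adjustment over the 72. Klf2 and Klf4 had a Pearson r of 0.90 (Spearman rho 0.87, adjusted permutation p = 0.00024 and 0.00036, r = 0.82 without the 2 libraries farthest from the median). Edn1 and Ece1 had an r of 0.84 (rho 0.79, adjusted permutation p = 0.000288 and 0.00108, r = 0.79 without the farthest 2). Varying together was not particular to these pairs. Ece1 and Ace had an r of 0.80 (rho 0.70, adjusted permutation p = 0.00186 and 0.00378). Nos3 and Piezo1 had an r of 0.77 (rho 0.71, adjusted permutation p = 0.00024 and 0.00103). Klf4 also followed the level of dissociation and immediate early genes (r = 0.92, rho 0.82, adjusted permutation p = 0.00024 and 0.00036, r = 0.83 without the farthest 2), as did Klf2 (r = 0.86, rho 0.75, adjusted permutation p = 0.000288 and 0.00048, r = 0.68). Without the 5 Alk1 mutants these values were 0.79 for Klf4 and 0.61 for Klf2.

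Ednrb followed the glial and neuronal marker level (r = 0.76, rho 0.76, adjusted permutation p = 0.00045 and 0.00072, r = 0.74 without the farthest 2). Edn1 and Ece1 went against the choroid plexus level, with an r of -0.66 (rho -0.68, adjusted permutation p = 0.00036 and 0.00072) and of -0.67 (rho -0.68, adjusted permutation p = 0.000411 and 0.00103), and of -0.67 and -0.70 without the farthest 2. All values of a library share its normalization. What these shared deviations come from was not tested.

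**Figure D4:**
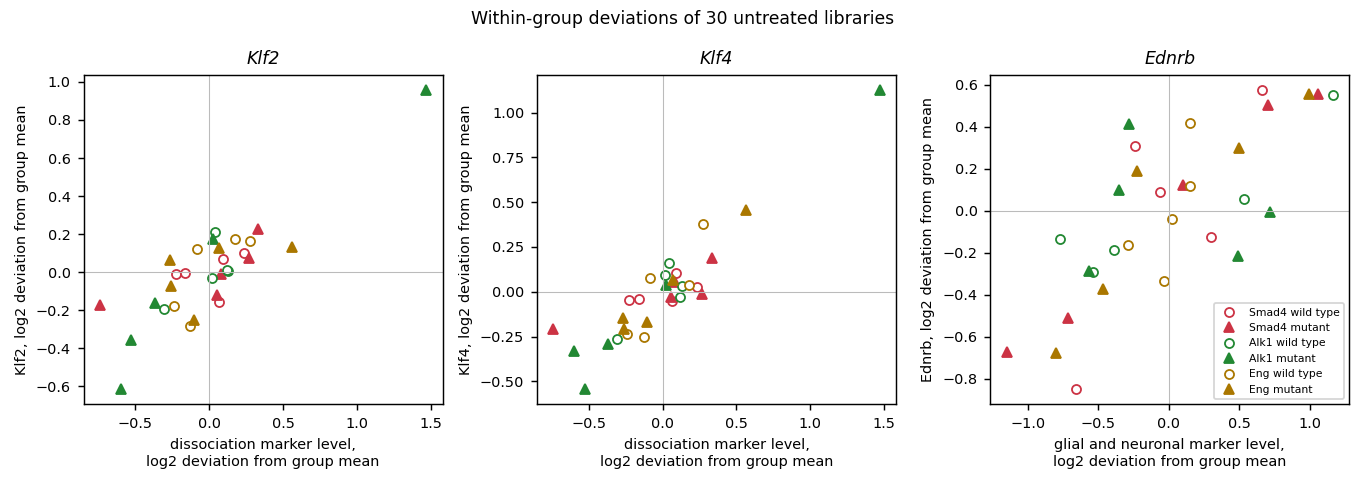
Deviation of each of the 30 untreated libraries from its group mean, as log2, for Klf2 and Klf4 against the level of dissociation and immediate early genes and for Ednrb against the level of glial and neuronal markers. Open circles are wild types and triangles mutants. Alk1 mutant 3 is at the upper right for Klf2 and Klf4, and the relations hold without the 2 farthest libraries at r = 0.68, 0.83 and 0.74.

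Over the same 30 libraries, now as log2 values minus the wild-type mean of their own table, the genes most like each member were listed as a description. For Klf4 they were Hes1 (r = 0.87), Tob1 (0.85) and Tsc22d2 (0.84). For Klf2 they were Csnk1e, Tob2 and Rnf125, at 0.88 each. Nos3 was most like Myo1d (0.92), Sh2b3 (0.91) and Lrp8 (0.89), and Edn1 most like Med13l (0.87), Ankrd13a and Smurf1 (0.86 each). For Ece1 they were Copa (0.96), Atp8b2 (0.95) and Arhgef1 (0.95), and for Piezo1 Arhgap23 (0.91), Pak4 (0.90) and Lasp1 (0.90). Ednrb was most like Hk2 (0.91), Havcr2 (0.90) and Gpt2 (0.87), Ace most like Ankrd24 (0.91), Eps8l2 (0.89) and S1pr4 (0.89), and Heg1 most like Crip2 (0.87), Synj2 (0.87) and Ptgis (0.86). With the group means taken out, those of Ace dropped to 0.62, 0.56 and 0.53 and those of Heg1 to 0.64, 0.49 and 0.44.

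Other genes of the same pathways were read by lists. Of 17 further shear stress sensors 12 were called higher and 0 lower in Smad4 mutants, with a median log2 fold change of 0.38, against 17.2% and 15.8% of all genes and a median of -0.01. The list holds Pecam1, the capture antigen, and Cdh5, both among the 10 endothelial markers. They rose by 0.39 and 0.20 in Smad4 mutants (adjusted p = 0.00655 and 0.0285). Of the 10 endothelial markers 2 were called higher and 0 lower there. With library totals as the scale, 1691 of all genes were higher and 2854 lower in Smad4 mutants, and the list was not read on that scale. Piezo2, the second PIEZO channel, rose by 1.45 ± 0.16 on the log2 scale (adjusted p = 8.46e-05), from a mean of 1030 to 2851. Plxnd1, a plexin receptor of that list, rose by 0.66 ± 0.07 (adjusted p = 7.25e-05). In Alk1 mutants 7 of the 17 were higher and 1 lower (17.5% and 15.7% of all genes), with Piezo2 at 1.39 and S1pr1, a sphingosine phosphate receptor, at 1.05 (adjusted p = 0.00698). In Eng mutants 3 were higher and 2 lower (12.4% and 9.08% of all genes), with Piezo2 at 0.43 (adjusted p = 0.00628). Under IgG 7 were higher and 0 lower (13.2% and 10.8% of all genes), with Piezo2 at 0.88. Piezo2 was thus called higher in all 4 comparisons, while Piezo1 was called in 3.

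Of 12 genes of the CCM complex and its kinase pathway, the partners of Heg1, 3 were called higher and 0 lower in Smad4 mutants, where 33% of all genes were called. Those were Mef2a, a MEF2 factor (0.39 ± 0.08, adjusted p = 0.00302), Rap1b (0.20) and Ccm2 (0.17). In Alk1 mutants Rap1b (0.31) and Map3k3, which encodes MEKK3 (0.28), rose and Krit1, which binds HEG1, fell (-0.25, adjusted p = 0.0295). In Eng mutants Ccm2 alone was called (0.18), and under IgG limma called 0, with a median of 0.05. These counts, 3 of 12 in Alk1, 1 in Eng and 0 under IgG, are set beside 33.2%, 21.5% and 24% of all genes. With 12 genes, no difference of the list from these shares was tested.

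Of 16 other genes that respond to KLF2 or KLF4, 6 were higher and 6 lower in Smad4 mutants, where 33% of all genes were called. The smallest adjusted p belonged to the angiopoietin receptor gene Tek (-0.58, adjusted p = 1.46e-05) and its ligand gene Angpt2 (2.61, adjusted p = 0.000491). Thbd, the anticoagulant thrombomodulin, rose by 0.41 ± 0.07 (adjusted p = 0.00140), and Ptgds, a prostaglandin D synthase, fell by 1.34 (adjusted p = 0.00248). Choroid plexus markers (5 of 6 lower, median -1.70) and oligodendrocyte lineage markers (4 of 8 lower, median -1.51) were lower in the same mutants, and their part in Ptgds was not tested. In Alk1 mutants 7 were higher and 4 lower (33.2% of all genes called), with Angpt2 at 3.03 and Tek at -0.86, and among the lower the arterial connexins Gja4 (-1.19) and Gja5 (-1.87). The list split 3 to 2 in Eng mutants (21.5% of all genes called), with Angpt2 at 1.36 and Tek at -0.53. It split 3 to 5 under IgG (24% of all genes), where Thbd rose again (0.27, adjusted p = 0.00298) and Tek fell (-0.34).

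Around Nos3, 4 of 16 genes of the nitric oxide pathway were higher and 5 lower in Smad4 mutants, with Nos1 at 0.84 and Nos2 at 0.21, and 33% of all genes were called there. Prkg1, the cGMP-dependent kinase through which nitric oxide relaxes muscle cells, fell in all 4 comparisons, with log2 fold changes of -0.71, -0.42, -0.32 and -0.87 for Smad4, Alk1, Eng and IgG. In Alk1 mutants 7 of 17 were higher and 3 lower, with the arginine transporter Slc7a1 at -0.68 (adjusted p = 0.000286) and Nostrin and Cav1, which bind NOS3, at 0.72 and 0.59. In Eng mutants 3 of 17 were higher and 2 lower, and under IgG 4 and 3. The shares of all genes called were 33.2% in Alk1, 21.5% in Eng, near that of the list, and 24% under IgG. Pericytes are a source of Prkg1, and of 10 pericyte markers 5 were lower in Smad4, 2 in Alk1, 0 in Eng and 7 in IgG mutants, with medians of -0.82, -0.20, 0.04 and -0.74. The summed level of these pericyte markers was 16370 to 50464 in Smad4 mutants against 56581 to 79972 in wild types, and 72171 to 129240 against 76330 to 124378 in the Eng cohort. Of 6 smooth muscle markers 4 were lower in Smad4, 4 in Alk1, 0 in Eng and 3 in IgG mutants. Higher were 1, 1, 0 and 1, and the medians were -0.75, -0.68, 0.18 and -0.49. The part of either cell type in Prkg1 was not tested.

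The endothelin list held 4 further measured genes, of which 0 were higher and 3 lower in Smad4 mutants (17.2% and 15.8% of all genes). Edn3, another endothelin, fell by 1.43 ± 0.11 (adjusted p = 6.59e-06), from a mean of 1008 to 378. In Alk1 mutants Edn3 fell by 1.44 (adjusted p = 0.000555), the endothelin-degrading enzyme Mme fell by 1.08, and the contractile receptor Ednra rose by 0.41 (adjusted p = 0.0307). In Eng mutants Edn3 fell by 0.73 (adjusted p = 0.00366), and under IgG 0 of the 4 were called.

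Of the other renin-angiotensin and kinin genes, 6 were measured beside Ace in Smad4 mutants. The bradykinin receptor Bdkrb2 rose by 1.05 (adjusted p = 0.00122) and the aminopeptidase Enpep fell by 1.18 (adjusted p = 0.00852). Bdkrb2 was also higher under IgG (0.78, adjusted p = 0.0420), where the angiotensin precursor Agt fell by 0.98. In Alk1 mutants Anpep fell by 0.42, and in Eng mutants limma called 0 of 7. Anpep is also in the list of 10 pericyte markers, of which 5 were lower in Smad4, 2 in Alk1 and 7 in IgG mutants. Of 10 astrocyte markers 3 were lower under IgG. The part of such cells in Anpep, Enpep and Agt was not tested. With 2 of 6 called in Smad4 and under IgG and 1 of 6 in Alk1 mutants, the list is set beside 33%, 24% and 33.2% of all genes.

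Among prostanoid genes, 3 of 8 were higher and 2 lower in Smad4 mutants, with the cyclooxygenase genes split, Ptgs1 at 1.09 and Ptgs2 at -1.66. Ptgs2 is itself an immediate early gene, and it also fell by 1.61 under IgG (adjusted p = 0.00199), where 1 of 8 was higher and 2 lower. Ptgis, the prostacyclin synthase, was lower in Alk1 mutants (-0.70) and higher in Eng mutants (0.23) and under IgG (0.47). The list stood at 2 higher and 2 lower of 9 in Alk1 and 1 and 1 in Eng mutants, and of all genes 33% were called in Smad4, 33.2% in Alk1, 21.5% in Eng and 24% in IgG mutants.

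Adm, the vasodilator adrenomedullin, rose in all 3 untreated cohorts, by 1.62, 3.00 and 1.22 in Smad4, Alk1 and Eng mutants, and was not called under IgG. Its list held 3 higher and 2 lower of 9 in Smad4, 2 and 3 of 8 in Alk1, 1 and 3 of 8 in Eng mutants, and 1 and 1 of 9 under IgG. Npr1, the natriuretic peptide receptor, fell in all 3 untreated cohorts, at -0.35, -0.53 and -0.23. Of 11 other members of the KLF family, 5 rose and 1 fell in Smad4 mutants, with Klf10 at 0.74, Klf6 at 0.60, Klf13 at 0.38 and Klf16 at 0.36. In Alk1 mutants 2 rose, with Klf6 at 1.23, and 1 fell, in Eng mutants 0 were called, and under IgG 3 rose, with Klf10 at 0.95, and 1 fell. Both lists are read against the same shares of all genes.

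**Figure D5:**
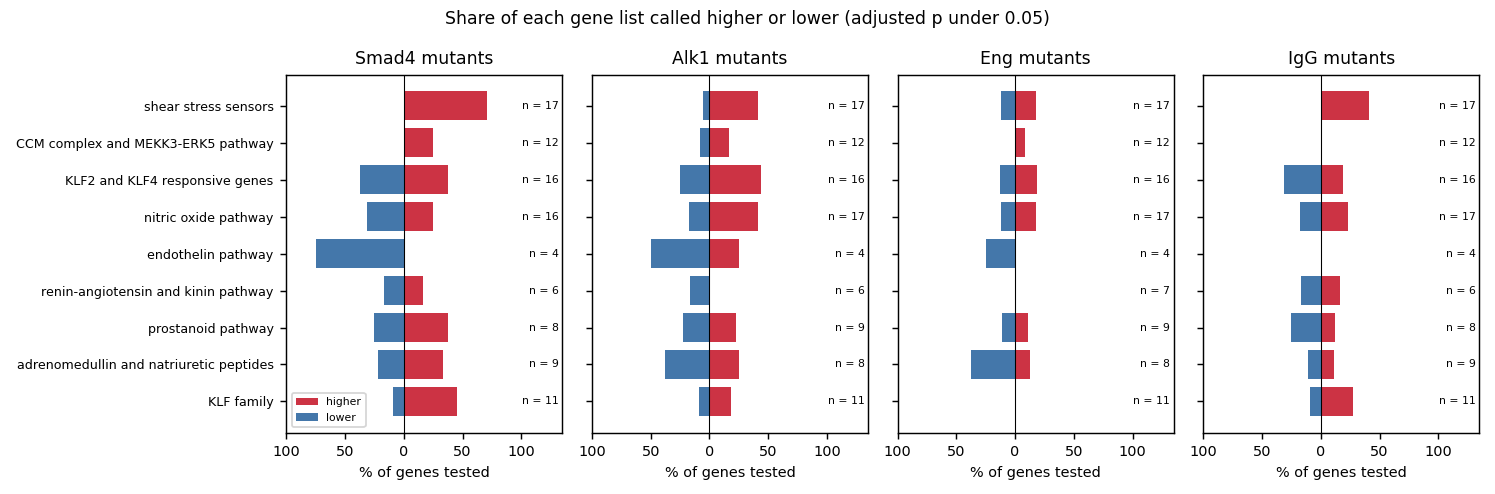
Share of the measured genes of each pathway list that were called higher (red, to the right) or lower (blue, to the left) in each of the 4 comparisons, in percent, with the number tested as n. The members themselves are not in the lists. Shear stress sensors reach 12 of 17 higher in Smad4 mutants, and the endothelin list 3 of 4 lower, among them Ece2 with values near the filter.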

How the data were processed

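RNA-seq of 39 libraries in 9 groups was used. The authors deposited 5 tables of normalized expression values (unit: signal), which the labels call raw counts although the values are not whole numbers. The genome build was mm10 per the submitters' processing notes. How reads were aligned, counted and normalized is not given in the sources used here, so sequencing depth is unknown. Each table held 24972 rows, of which 26 were left out because some of the tables give dates in place of their names. Of the LC10 columns 3 matched no sample described and were not analysed here. Untreated columns matched their samples by group only, so their replicate numbers give column order.

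A gene was kept if 5 libraries (3 in the antibody fit) reached a value of 20. Kept genes were tested as log2(value + 2) with limma 3.58.1 (R 4.3.3), with trend and Benjamini-Hochberg adjustment over all genes tested, and called under 0.05. Groups were compared within a table. The test was checked on simulated data. The labels do not say that libraries came from separate animals, so p-values measure the spread between these libraries. Deviations from group means gave r from -0.07 to 0.18 between same-numbered IgG and LC10 libraries, and -0.21 to 0.17 between differently numbered ones. With 3 libraries a group, these values cannot show whether equal numbers pair samples. Relations within groups used 100000 permutations.

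The members and the gene lists were chosen with earlier results of these data known. The text names the members, the 3 genes of the deleted alleles, up to 4 called genes per pathway list and comparison with the smallest adjusted p, and 3 genes most like each member. Alternatives were the pseudocount, the filter, scaling, limma without trend, marker levels or library code as a term, subsets by code, a replicate block, a joint fit and leaving out each library. The dissociation and choroid plexus terms, the L210 and coded subsets and the longer MEF2 pattern were chosen after seeing the data.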

Additional observations from a re-analysis of the deposited data

Results flagged for a closer look

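In 5 of 54 groups of 5 libraries, 1 library of a member lay far from the other 4, and chance flags about 1 in 20 such groups. Klf4 was at 15491 in Alk1 mutant 3 and Edn1 at 5704 in Eng mutant 5. Heg1 was at 14821 in Alk1 mutant 2. Among Alk1 wild types, library 2 stood highest in Ece1 (23895) and Piezo1 (20562).

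Effects that differed between cohorts by the test of the difference were those of Nos3 (0.31), Ednrb (-1.08), Piezo1 (0.50) and Heg1 (0.68) for Smad4 minus Alk1 on the log2 scale. For Smad4 minus Eng they were Nos3 (0.42), Ece1 (0.47) and Ace (-0.54), and for Alk1 minus Eng Ace (-0.58) and Heg1 (-0.50).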

How the results depend on the processing

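Of the 7 members called after loss of Smad4, 4 were called with each library divided by its total, with quantile normalization and with the choroid plexus level as a term, and 5 to 7 when single libraries were left out. For Alk1 the count of 3 became 1 among the libraries without a code and 5 in the joint fit of the 30 untreated libraries, and ran from 3 to 4 without single libraries. For Eng the count of 2 became 1 with limma without trend, among the L210 libraries and in the joint fit, and ran from 1 to 2 without single libraries. For IgG the count of 5 became 2 without trend, 3 with the glial and neuronal level and 1 with the choroid plexus level as a term, 2 with the IgG table fitted alone, and 3 to 4 without single libraries. The 4 members differing between Smad4 and Alk1 became 2 among the libraries without a code, and ran from 3 to 5 without single libraries. Klf4 in the Alk1 cohort turned from 0.10 to -0.49 (limma adjusted p = 0.00115) with the dissociation gene level as a term. The cause of these changes was not tested.

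Counts over all genes moved as well: 4620 for Smad4 became 2171, 1998 and 1814 with the glial, dissociation and choroid plexus terms and 2461 without coded libraries. For Alk1 4530 became 2005 without coded libraries, for Eng 3082 became 1632 in the joint fit, and for IgG 3371 became 1663 and 488 with the glial and choroid plexus terms. The 2305 genes differing between Smad4 and Alk1 became 544 without coded libraries. In a fit with the replicate block for the IgG groups, 7 members were called, with Edn1 at -0.64 (limma adjusted p = 0.0408) and Ednrb at -0.35 (limma adjusted p = 0.0418) added. Whether the replicate numbers pair samples is not known. Depth is unknown, so limits from counting cannot be given.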
